A study of Mus musculus with 12 samples.

Results

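The MCM replication helicase subunits Mcm2, Mcm3, Mcm4, Mcm5, Mcm6 and Mcm7 were described in the RAW264 mouse macrophage line. The members are the 6 genes with these symbols, found through the Ensembl identifiers ENSMUSG00000002870 (Mcm2), ENSMUSG00000041859 (Mcm3), ENSMUSG00000022673 (Mcm4), ENSMUSG00000005410 (Mcm5), ENSMUSG00000026355 (Mcm6) and ENSMUSG00000029730 (Mcm7), of 9621 genes in all. Basal cells had no stimulus, LPS cells had 30 min of lipopolysaccharide (a bacterial cell wall component, 100 ng/ml), and LPS + DEX cells had the same LPS dose and time together with the glucocorticoid dexamethasone (10 µM). All 3 groups also received the elongation inhibitor cycloheximide (100 µg/ml) so that ribosomes stayed in place. Libraries of poly(A) mRNA and of ribosome-protected fragments (RPF, or footprints) were read on an Ion PGM, with 2 independent biological replicates for each of the 3 treatments in each of the 2 assays, which makes 12 libraries. All replicates are cultures of 1 transformed line, which has no untransformed counterpart in the design.

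The proteins encoded by Mcm2 to Mcm7 form a ring with 1 copy of each subunit. The ring is loaded onto origins of replication in G1 phase by the origin recognition complex, Cdc6 and Cdt1. It becomes an active helicase in S phase when Cdc45 and the GINS complex join it. The genes are known targets of E2F transcription factors in cycling cells, and Mcm2, Mcm4, Mcm6 and Mcm7 are often described apart from the Mcm3 and Mcm5 pair, since Mcm4, Mcm6 and Mcm7 form a stable core. In a macrophage line that proliferates in culture, the subunits are part of the ordinary replication machinery.

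Since the 6 subunits are known as E2F targets, the RefSeq promoters (GRCm38.p6, 250 bases before to 50 after each start) were searched for the E2F word. The 4 spellings used, on both strands, were TTTCCCGC, TTTCGCGC, TTTGCCGC and TTTGGCGC. Matches may overlap one another. The table held promoters for 5 of the 6 genes, matched by symbol (Mcm4 was not matched). These 5 genes have 6 promoters in the table, since Mcm7 has 2. A match was found in 4 of the 6 promoters, 1 each of Mcm3, Mcm5, Mcm6 and Mcm7, against 2.26% of the 32851 promoters of the same length. Windows around the matches are printed 5′ to 3′ on the strand of the gene, with matched bases in capitals, to show how the words lie in each gene. A match is a spelling in the sequence, and binding was not measured. Any part of these words in the mRNA values below was not tested.
Mcm3 (chr1:20820266-20820294, minus strand): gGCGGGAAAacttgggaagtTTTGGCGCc
Mcm5 (chr8:75109336-75109387, plus strand): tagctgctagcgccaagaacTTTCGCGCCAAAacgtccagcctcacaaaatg
Mcm6 (chr1:128359784-128359835, minus strand): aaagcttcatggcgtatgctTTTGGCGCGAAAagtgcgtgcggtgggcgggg
Mcm6 (chr1:128359725-128359772, minus strand): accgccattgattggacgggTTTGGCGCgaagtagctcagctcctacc
Mcm7 (chr5:138172021-138172068, minus strand): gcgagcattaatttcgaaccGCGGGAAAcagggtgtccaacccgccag
Mcm7 (chr5:138171859-138171882, minus strand): acatgggtgacgacgTTTCGCGCc
In Mcm5 and in the first of the Mcm6 windows printed, a pair of words on opposite strands overlaps and shares its central bases. Both Mcm3 matches and the last Mcm7 match lie just downstream of the annotated start. The promoter of Mcm2 and the other Mcm7 promoter in the table held none of the 4 spellings in this window.

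Levels are CPM, the reads of a gene scaled to the read total of its library, with no scaling by gene length. The libraries held 1475120 to 2529666 reads in mRNA and 821946 to 1833560 in RPF, with the fewest in the LPS footprint libraries, and each MCM subunit had at least 108 reads in every library. Fewer cells expressing a gene and less RNA per cell cannot be told apart in such bulk samples. Among mRNA libraries, basal replicate 1 was least like the rest, with Spearman correlations across genes of 0.78 to 0.83 against 0.89 to 0.98 between the others. It held the keratin Krt7 at 1108 CPM, while no other library exceeded 2.43 CPM. Krt7 is the only 1 of 8 epithelial markers among the listed genes. The 11 macrophage markers listed were above 0 in all 12 libraries, and summed to 5334 to 6061 CPM in mRNA and 6751 to 7700 CPM in RPF. Single markers moved both ways in mRNA with LPS + DEX against basal. Csf1r, the receptor for the macrophage growth factor CSF1, rose by 1.14 and Cd14, an LPS co-receptor, by 0.71, while the adaptor Tyrobp fell by 0.58 and the lysozyme Lyz2 by 0.42 (log2, limma adjusted p 0.00701 to 0.0355). Of 6 fibroblast markers only Col3a1 is listed, at 3.39 and 16.2 CPM in basal mRNA, 46.7 and 51.4 CPM after LPS and 75.1 and 61.6 CPM with LPS + DEX. In footprints it lay at 142 and 115 CPM at basal, 65.1 and 60.8 CPM in LPS and 134 and 128 CPM in LPS + DEX. It thus rose with treatment in mRNA and was lower in footprints after LPS, and its TE fell by 3.53 with LPS (limma adjusted p = 0.00306). The part of these markers in the results was not tested. No lymphocyte marker of the 6 chosen is listed.

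The first comparison asks whether mRNA of the subunits changed within 30 min of LPS, with or without DEX. All 6 subunits had higher mRNA in both LPS libraries and in both LPS + DEX libraries than in either basal library. For Mcm4 this was close to a tie, at 89.34 CPM in LPS + DEX replicate 1 and 89.32 CPM in basal replicate 2. The summed mRNA of the 6 subunits measured 1346 and 1364 CPM in the basal libraries, 1797 and 2071 CPM in LPS, and 2443 and 2190 CPM in LPS + DEX. Groups that do not overlap in this direction were common over all genes, at 46.7% for LPS and 47.5% for LPS + DEX against basal. The 6 of 6 counts are read against these backgrounds.

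**Figure D1:**
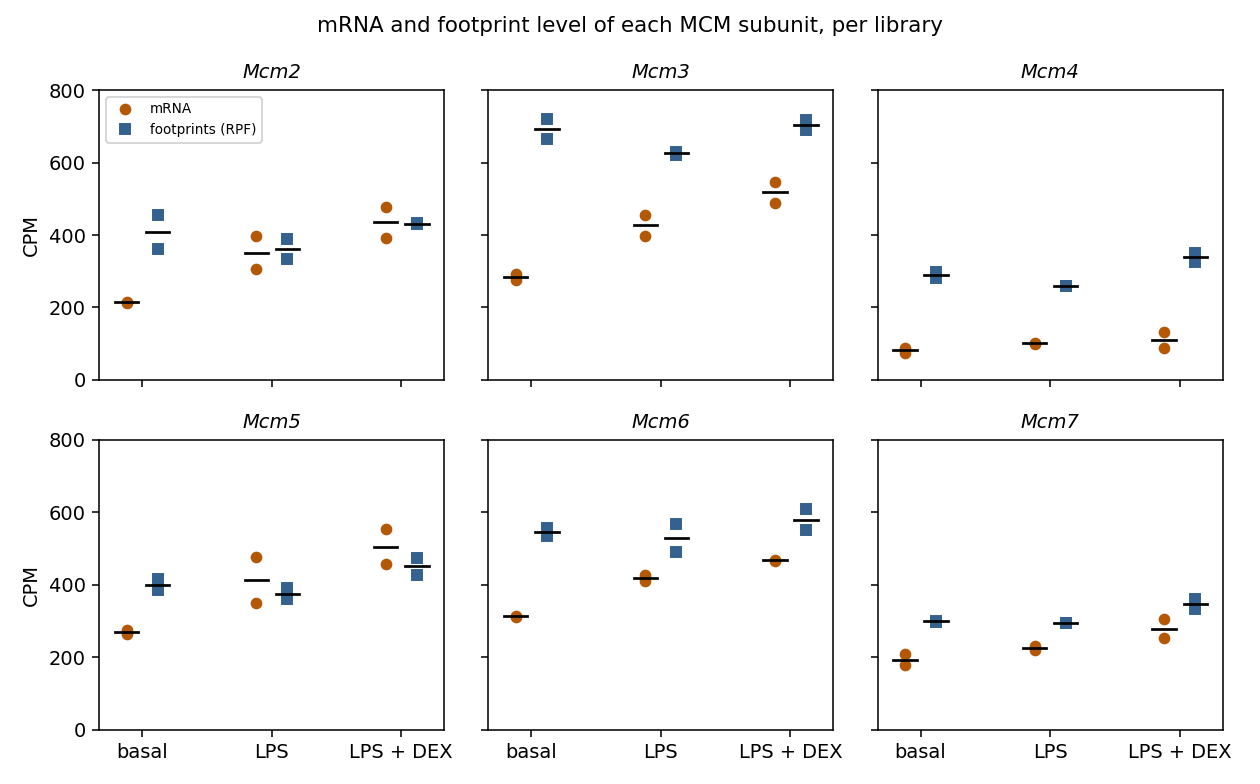
mRNA (circles) and footprint (squares) levels of each subunit in CPM on a linear axis, by treatment, with 1 point per library and a bar at the mean of the 2 libraries. The mean mRNA of all 6 subunits lies above basal in both treated groups, though for Mcm4 1 LPS + DEX library is level with a basal one. Footprints of Mcm3 stay between 620 and 720 CPM in all 6 RPF libraries.

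Mcm2, the subunit at the gate of the ring that also carries histones, had 213 and 214 CPM of mRNA at basal, 306 and 397 CPM in LPS, and 478 and 392 CPM with LPS + DEX. The basal libraries differed by less than 1 CPM, and every treated library lay above both. Its mRNA rose after LPS by a log2 fold change of 0.70 ± 0.16 (SE, n = 2 against 2 libraries, limma adjusted p = 0.0391) and with LPS + DEX by 1.01 ± 0.16 (adjusted p = 0.00955).

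Mcm3, which pairs with Mcm5 in the ring, had 275 and 292 CPM of mRNA at basal, 397 and 456 CPM in LPS, and 547 and 490 CPM with LPS + DEX. The 3 groups did not overlap. It rose by 0.59 ± 0.13 after LPS (limma adjusted p = 0.0339) and by 0.87 ± 0.13 with LPS + DEX (adjusted p = 0.00855).

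Mcm5, the other side of the ring's gate next to Mcm2, had 263 and 276 CPM of mRNA at basal, 349 and 476 CPM in LPS, and 554 and 457 CPM with LPS + DEX. The LPS libraries spread widely, and LPS + DEX overlapped them. The LPS value of 0.60 ± 0.17 did not pass (limma adjusted p = 0.0638), and with LPS + DEX the mRNA rose by 0.90 ± 0.17 (adjusted p = 0.0129).

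Mcm6, of the stable core, had 313 and 315 CPM of mRNA at basal, 426 and 410 CPM in LPS, and 469 and 466 CPM with LPS + DEX. The replicates lay close together in each group, and no treated library reached down to a basal one. Its change was 0.41 ± 0.11 after LPS (limma adjusted p = 0.0507) and it rose by 0.57 ± 0.11 with LPS + DEX (adjusted p = 0.0125).

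Mcm7, also of the core, had 209 and 178 CPM of mRNA at basal, 220 and 231 CPM in LPS, and 305 and 253 CPM with LPS + DEX. The RefSeq span of this gene overlaps that of Ap4m1 and of the microRNA genes Mir25, Mir93 and Mir106b, and the sources used here do not say whether strand was used in counting, so reads of Mcm7 and Ap4m1 may not be fully separated. The LPS value of 0.22 ± 0.15 did not pass (limma adjusted p = 0.343), and with LPS + DEX it rose by 0.52 ± 0.15 (adjusted p = 0.0428).

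Mcm4, the core subunit that carries many phosphorylation sites for the Cdc7 kinase, had 73.2 and 89.3 CPM of mRNA at basal, 99.9 and 101 CPM in LPS, and 89.3 and 133 CPM with LPS + DEX. LPS + DEX replicate 1 lay at the level of basal replicate 2, so the groups separated by a narrow margin. Neither change passed, at 0.31 ± 0.21 for LPS (limma adjusted p = 0.355) and 0.43 ± 0.21 for LPS + DEX (adjusted p = 0.186).

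After LPS, 2 of 6 subunits rose and none fell, against 9.03% of 9277 genes called higher. With LPS + DEX, 5 of 6 rose, against 18.5% called higher. The median change of the subunits was 0.50 and 0.72 (log2), beside medians over all genes of 0.26 and 0.28. Scaling libraries by the median of ratios in place of the total lowered all mRNA changes against basal, with shifts of the gene median of -0.25 and -0.28. Under that scaling the subunit medians were 0.24 and 0.43, Mcm7 after LPS turned to -0.041, and 0 of 6 subunits passed for LPS and 2 of 6 (Mcm2 and Mcm3) for LPS + DEX, where 1.98% and 7.76% of all genes were called higher. With an mRNA library left out, the LPS change was 0.51 to 0.89 for Mcm2 and 0.49 to 0.69 for Mcm3. The LPS + DEX change was 0.87 to 1.16 (Mcm2), 0.79 to 0.95 (Mcm3) and 0.76 to 1.04 (Mcm5). It was 0.57 to 0.58 for Mcm6 and 0.39 to 0.66 for Mcm7. Calls of these subunits were lost in some of these fits, and those of Mcm2 and Mcm3 for LPS and of Mcm7 for LPS + DEX in most. Such a fit leaves 1 library in a group, and the share of all genes called moved as well, so calls are not compared.

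Between LPS + DEX and LPS, which differ by the glucocorticoid, mRNA of all 6 subunits had positive values, from 0.11 ± 0.21 (Mcm4) to 0.31 ± 0.16 (Mcm2). None passed limma's test, in which 0% of 9277 genes were called (183 had an unadjusted p below 0.05). By limma-voom the count was also 0 (209 below 0.05 unadjusted). Mcm3, Mcm6 and Mcm7 had LPS + DEX libraries above both LPS libraries, against 18.2% of genes.

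The footprint comparison asks whether ribosomes on these mRNAs followed. The summed footprints measured 2709 and 2561 CPM in the basal libraries, 2467 and 2424 CPM in LPS, and 2839 and 2862 CPM in LPS + DEX. No subunit passed against basal in either treatment. Over all genes, limma called 7.62% after LPS and 4.63% with LPS + DEX. The subunit changes ranged from -0.17 to -0.02 after LPS, and from 0.02 to 0.22 with LPS + DEX (log2). Both LPS libraries lay under both basal ones for 3 subunits (Mcm3, Mcm4 and Mcm7), against 29.9% of genes. Both LPS + DEX libraries lay above both basal ones for 3 (Mcm4, Mcm5 and Mcm7), against 20.8%.

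Mcm3 footprints were 720 and 664 CPM at basal, 620 and 630 CPM in LPS, and 718 and 689 CPM with LPS + DEX. Its LPS value was -0.15 ± 0.08 (limma adjusted p = 0.335), with both LPS libraries under both basal ones. Mcm6 footprints were 534 and 556 CPM, 568 and 490 CPM, and 550 and 609 CPM in the same order of groups, and the groups overlapped. Mcm2 footprints were 456 and 362 CPM, 334 and 389 CPM, and 431 and 432 CPM, with the basal replicates further apart than the group means. Mcm5 footprints were 415 and 385 CPM, 391 and 361 CPM, and 428 and 474 CPM. For Mcm2, Mcm5 and Mcm6 the LPS and basal libraries overlapped. Mcm7 footprints were 301 and 297 CPM, 295 and 294 CPM, and 360 and 334 CPM, so that basal and LPS libraries were nearly level and both LPS + DEX libraries lay higher.

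Mcm4 footprints were 282 and 297 CPM at basal, 259 and 258 CPM in LPS, and 351 and 325 CPM with LPS + DEX, and the 3 groups did not overlap. They rose with LPS + DEX against LPS by 0.38 ± 0.10 (limma adjusted p = 0.0318), the only subunit of 6 to pass there, against 3.14% of 8847 genes called higher. The other 5 ranged from 0.13 to 0.26 in that comparison and did not pass. Both LPS + DEX libraries lay above both LPS libraries for 5 subunits, all but Mcm6, against 26.9% of genes. The Mcm4 change was 0.33 to 0.44 over all RPF libraries left out in turn. Its call was lost without any 1 of the 4 RPF libraries compared, where fewer genes of any kind passed. It was also lost without a filter on low values (limma adjusted p = 0.0558), where 1.22% of all genes were called higher.

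Translational efficiency (TE) is the log2 ratio of footprints to mRNA. How it changed between treatments was tested as the interaction of assay and treatment in 1 fit of the 12 libraries. TE of Mcm2, Mcm3, Mcm5 and Mcm6 fell in both treatments against basal, 4 of 6 subunits in each, against 13.6% of genes called lower for LPS and 12.2% for LPS + DEX. Mcm2 fell by 0.87 ± 0.22 after LPS (limma adjusted p = 0.0168) and by 0.93 ± 0.22 with LPS + DEX (adjusted p = 0.0147). Mcm3 fell by 0.73 ± 0.15 (adjusted p = 0.00688) and by 0.84 ± 0.15 (adjusted p = 0.00431). Mcm5 fell by 0.69 ± 0.20 and 0.73 ± 0.20, and Mcm6 by 0.46 ± 0.15 and 0.49 ± 0.15, with adjusted p of 0.0317 to 0.0479 for these 4 values. Mcm4 measured -0.47 ± 0.24 and -0.20 ± 0.24, and Mcm7 -0.24 ± 0.18 and -0.31 ± 0.18, and neither passed. The median over the subunits was -0.58 for LPS and -0.61 for LPS + DEX, beside -0.34 for all genes in both. The TE changes of both treatments share the basal libraries. Each is the footprint change minus the mRNA change of the same libraries, so it is not a result apart from the mRNA changes above.

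With median-of-ratios scaling, which raised the median TE change of all genes by 0.28 and 0.32, 0 of 6 subunits passed for LPS and 1 of 6 (Mcm3) for LPS + DEX, where 5.33% and 3.78% of all genes were called lower, and the subunit medians were -0.29 and -0.27. With a library left out, the TE change for LPS was -1.06 to -0.69 (Mcm2), -0.83 to -0.63 (Mcm3), -0.91 to -0.46 (Mcm5) and -0.565 to -0.35 (Mcm6). For LPS + DEX it was -1.09 to -0.76 (Mcm2), -0.93 to -0.76 (Mcm3), -0.87 to -0.59 (Mcm5) and -0.56 to -0.41 (Mcm6). Calls of Mcm2, Mcm5 and Mcm6 were lost in some of these fits, those of Mcm6 in most. Each leaves 1 library in a group, and the share of all genes called moved as well, so calls are not compared. DEX added to LPS changed no subunit's TE past the threshold (-0.11 to 0.27), where 0.0531% of all genes (5, and 0 by limma-voom) were called in either direction.

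**Figure D2:**
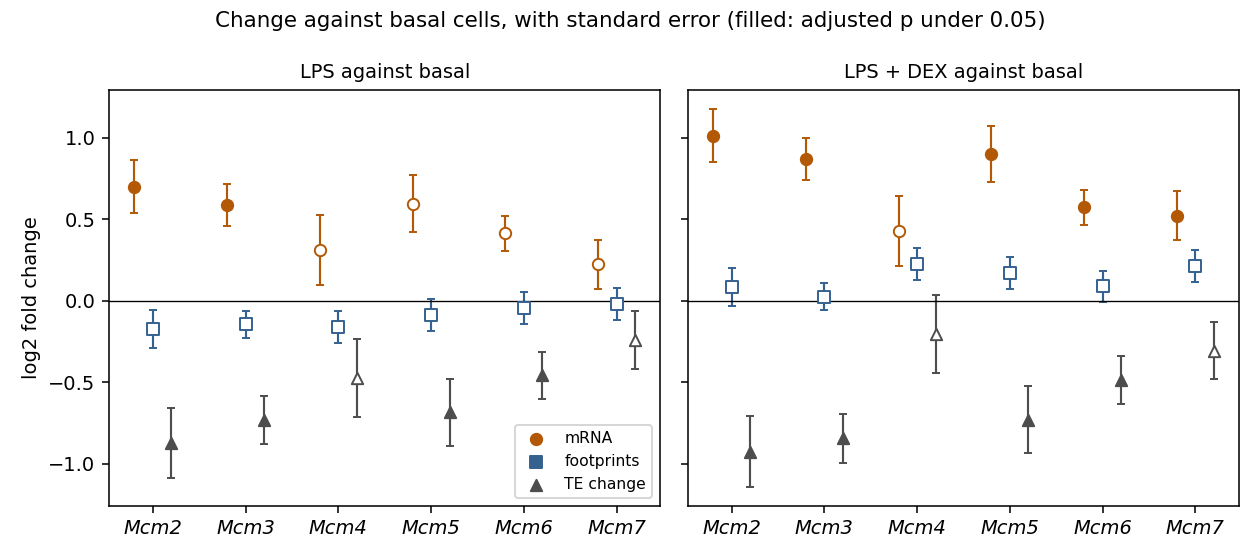
Log2 fold changes against basal with standard errors for mRNA (circles), footprints (squares) and TE (triangles) of each subunit, with filled symbols for an adjusted p under 0.05. The mRNA values lie above 0 for all 6 subunits, the footprint values lie between -0.17 and 0.22, and the TE values are negative throughout, under scaling to library totals. Medians over all genes were 0.26 (LPS) and 0.28 (LPS + DEX) in mRNA, and -0.34 in TE for both. Mcm7 mRNA in LPS (0.22) lay below its median. TE of Mcm7 in both treatments and of Mcm4 in LPS + DEX lay above the TE median.

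The level of TE in each treatment shows how evenly footprint CPM over mRNA CPM lay over the subunits of 1 complex. Neither level was corrected for length, and any part of coding length in the differences between subunits was not tested. The ratio does not measure how much of each subunit was made. Footprint CPM over mRNA CPM was above 1 for all 6 subunits in basal cells, from 1.49 for Mcm5 to 3.56 for Mcm4. The others were 1.54 for Mcm7, 1.74 for Mcm6, 1.91 for Mcm2 and 2.44 for Mcm3. All 6 passed limma's test of footprints against mRNA, against 33.4% of 9412 genes called higher in basal cells. With a library left out their log2 values stayed at 0.51 (Mcm7) or above. With median-of-ratios scaling 5 passed, against 25.1% of genes, and Mcm5 measured 0.29 (limma adjusted p = 0.0957). Mcm4 stood highest at a log2 value of 1.83 ± 0.17 (limma adjusted p = 1.72e-06), followed by Mcm3 at 1.29 ± 0.11 (adjusted p = 5.76e-07). In the order of the TE levels, Mcm5 (0.57 ± 0.14), Mcm7 (0.63 ± 0.12), Mcm6 (0.79 ± 0.10) and Mcm2 (0.92 ± 0.15) each differed from the next by less than the sum of the standard errors of the pair. The steps from Mcm2 to Mcm3 and from Mcm3 to Mcm4 were larger than that. The CCT chaperonin, another ring of distinct subunits, had 8 of 8 subunits higher in footprints in the same test.

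After LPS the ratios were 0.912 (Mcm5), 1.03 (Mcm2), 1.27 (Mcm6), 1.31 (Mcm7), 1.47 (Mcm3) and 2.57 (Mcm4). With LPS + DEX they were 0.892 (Mcm5), 0.992 (Mcm2), 1.24 (Mcm6), 1.24 (Mcm7), 1.36 (Mcm3) and 3.04 (Mcm4). By these group means Mcm4 had the highest ratio and Mcm3 the next in all 3 treatments, and the same held for the ratios of replicate 1 and of replicate 2 taken alone. Mcm5 was lowest by group means, but in replicate 1 alone Mcm7 was lowest at basal (1.44, with Mcm5 at 1.58) and Mcm2 in LPS (1.09, with Mcm5 at 1.12). In both treated groups 4 of 6 subunits (Mcm3, Mcm4, Mcm6 and Mcm7) passed as higher in footprints than in mRNA, against 24.8% of genes for LPS and 23.8% for LPS + DEX. With a library left out, the log2 values for LPS were 0.45 to 0.65 (Mcm3), 1.34 to 1.36 (Mcm4), 0.23 to 0.44 (Mcm6) and 0.35 to 0.42 (Mcm7). For LPS + DEX they were 0.36 to 0.52 (Mcm3), 1.34 to 1.91 (Mcm4), 0.24 to 0.38 (Mcm6) and 0.18 to 0.46 (Mcm7). The Mcm6 and Mcm7 calls were lost in some of these fits, that of Mcm7 in LPS + DEX in most. With the culture number as a block, Mcm7 in LPS + DEX did not pass either (0.32, limma adjusted p = 0.0573).

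Over the group means, the highest ratio was 2.40 times the lowest in basal cells, 2.82 times in LPS and 3.41 times in LPS + DEX. Without Mcm4, which was set aside after its values were seen, the other 5 lay within 1.64, 1.61 and 1.52 times. As a description, the SD of the log2 ratio over the 6 subunits was 0.48, 0.52 and 0.63, beside 0.35, 0.30 and 0.30 over the 8 subunits of CCT, and 1.21, 1.13 and 1.13 over 3595 genes above 0 in all libraries with a mean mRNA level of at least 50 CPM. No coding or transcript length is in the sources used here, so levels are not compared between subunits per length.

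Shares of the summed MCM level compare the same subunit between assays without library scaling. Mcm4 took 3.66% to 6.55% of the summed level in the 6 mRNA libraries and 10.4% to 12.4% in the 6 RPF libraries. The highest mRNA share rests on 165 of 2520 MCM reads (exact Clopper-Pearson 95% interval 5.61% to 7.58%, counting error only) and the lowest RPF share on 369 of 3550 reads (9.41% to 11.4%). Mcm3 took 20.4% to 22.4% in mRNA and 24.1% to 26.6% in RPF. Mcm5 had a lower share in footprints, at 19.4% to 23.0% in mRNA and 14.9% to 16.6% in RPF. The shares of a library add up to the whole, so a higher share of 1 subunit lowers those of others. The ratio of footprint CPM to mRNA CPM of Mcm5 itself was 1.49 in basal cells. These 3 subunits did not overlap between the assays, where 43.1% of all genes, taken over the same summed MCM level, did not overlap in either direction. Mcm2 (15.7% to 19.6% and 13.5% to 16.8%), Mcm6 (19.2% to 23.7% and 19.4% to 23.0%) and Mcm7 (11.1% to 15.6% and 11.1% to 12.7%) overlapped between mRNA and RPF.

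**Figure D3:**
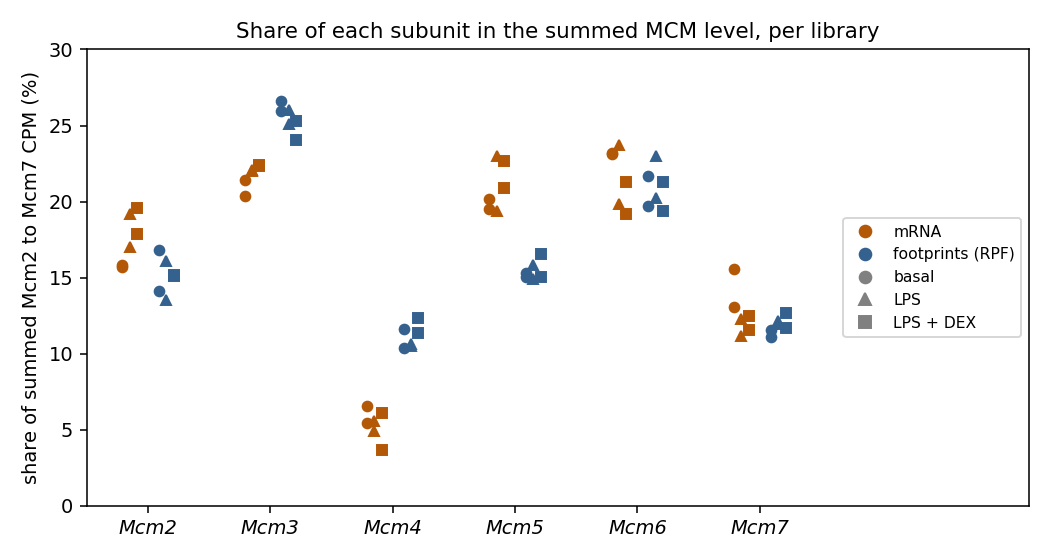
Share of each subunit in the summed CPM of Mcm2 to Mcm7 (percent, from 0), 1 point per library, with mRNA and footprints by colour and treatment by shape. Mcm4 lies at 3.66% to 6.55% in mRNA and at 10.4% to 12.4% in footprints, and only values of the same subunit are to be compared, since gene length is not taken into account.

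Over the 12 libraries, with log2 values centred within each assay, each subunit was set against the mean of the other 5. The Pearson correlation was 0.97 for Mcm3, 0.95 for Mcm5, 0.94 for Mcm2, 0.90 for Mcm6, 0.83 for Mcm7 and 0.58 for Mcm4. The points share their libraries and the difference between basal and treated mRNA, so these are descriptions with no p. Among 2862 other genes with at least 50 CPM on average in each assay, the median correlation with the mean MCM profile was 0.34. The 5 genes most like it were Plcg2, a phospholipase C of immune receptor signalling (0.989), the spliceosome core protein Prpf8 (0.987), the diacylglycerol kinase Dgkz (0.986), Pold1, the catalytic subunit of DNA polymerase delta (0.986), and the myosin Myo7a (0.985).

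The other steps of replication show whether the rest of the machinery moved alike. The lists of origin licensing, helicase activation, replisome and nucleotide supply name 56 further genes, of which 55 were tested. With LPS + DEX against basal mRNA, 10 of 55 rose and 2 fell, which is near the 18.5% higher and 4.23% lower over all genes, with a median of 0.15 beside 0.28 for all genes. With median-of-ratios scaling 3 rose and 6 fell at a median of -0.14. The balance of calls moved the same way over all genes under that scaling, to 7.76% higher and 8.90% lower. Without mRNA basal replicate 1 the median was 0.06, beside 0.24 for all genes. After LPS alone 4 of 55 rose and none fell (median 0.07), against 9.03% higher and 1.68% lower over all genes.

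**Figure D4:**
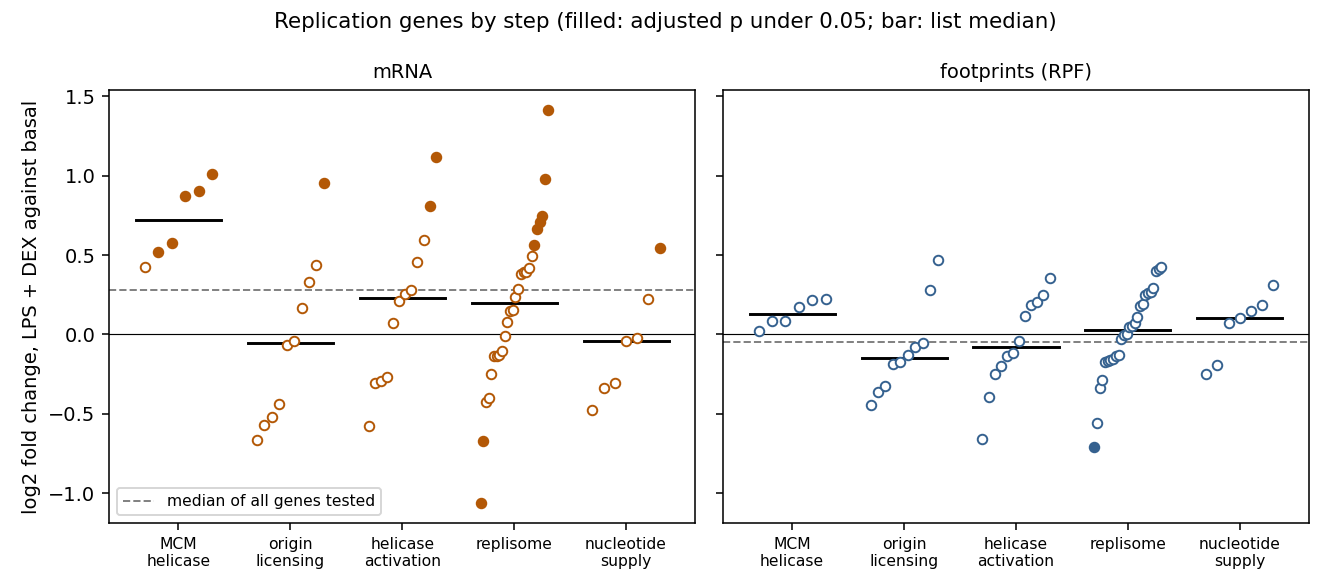
Log2 fold change of LPS + DEX against basal for genes of each replication step, in mRNA (left) and footprints (right), with a bar at each list median, a dashed line at the median of all genes tested and filled symbols for an adjusted p under 0.05. In mRNA the MCM subunits lie between 0.43 and 1.01 under scaling to library totals, and the other lists have members on both sides of 0.

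Among licensing factors, 1 of 10 rose with LPS + DEX, the MCM loader Cdt1 (0.95 ± 0.18, limma adjusted p = 0.0122), and the list median was -0.05. Among helicase activators 2 of 12 rose, the origin firing factor Ticrr (1.12 ± 0.23) and Mcm10, which binds the active helicase (0.81 ± 0.20). In the replisome list 6 of 26 rose and 2 fell. The counts of these lists are to be read against the same 18.5% and 4.23%, and none is called particular to its list. Pold1 rose by 1.41 ± 0.19, from 56.9 and 54.7 CPM in basal cells to 160 and 141 CPM. Rpa1, the large subunit of the single-strand binding protein RPA, rose by 0.98 ± 0.13. Its small subunit Rpa3 fell by 1.06 ± 0.24 and the fork protection factor Tipin by 0.67 ± 0.20. The ribonucleotide reductase subunit Rrm1 was the 1 riser of 7 nucleotide supply genes (0.55 ± 0.12). With median-of-ratios scaling Pold1, Rpa1 and Ticrr still passed as higher and Rpa3 and Tipin as lower, while Cdt1, Mcm10 and Rrm1 did not pass.

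In footprints, with 1.77% of all genes higher and 2.86% lower, these 55 genes gave 0 higher and 1 lower with LPS + DEX, the polymerase delta subunit Pold2 (-0.71 ± 0.14, limma adjusted p = 0.00962). After LPS, with 3.30% of all genes higher and 4.32% lower, footprints of the histone-fold polymerase epsilon subunit Pole3 rose by 0.67 ± 0.18, and those of Pold2 and the primase subunit Prim2 fell by 0.81 ± 0.14 and 0.67 ± 0.17. Between LPS + DEX and LPS the flap endonuclease Fen1 rose (0.55 ± 0.12, limma adjusted p = 0.0105), the only 1 of 55, against 3.14% of all genes. TE fell with LPS in 5 of 55 genes and rose in 1, against 13.6% lower and 3.08% higher over all genes, with Cdt1 at -1.25 ± 0.25, Pold2 at -1.29 ± 0.22 and Pold1 at -1.14 ± 0.24, while under median-of-ratios scaling the counts were 3 lower and 7 higher, against 5.33% and 5.93%. Of 5 tested genes with MCM names outside the ring, 4 had higher footprints than mRNA in basal cells, against 33.4% of all genes. Among them were the MCM-binding protein Mcmbp (0.91 ± 0.19) and Mcm8, of the Mcm8 and Mcm9 helicase used in recombination (0.85 ± 0.28). Mcmbp and Mcm10 are also among the 55 genes above.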

How the data were processed

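The deposited files give, per Ensembl gene and library, CPM plus 1: the lowest deposited value is 1, and with 1 subtracted, 100% of values to 3 digits correspond to a whole number of reads (tolerance 0.1 read). The sources used here do not give the aligner, build, annotation or strand setting. Symbols matched 9521 of 9621 identifiers. Limma-trend (limma 3.58.1, R 4.3.3) was run on log2(CPM + 1), with treatment as the only factor, over the 6 libraries of an assay or, for TE, over all 12. Genes entered a test if 2 or more libraries held the equivalent of 10 reads at median depth and the summed reads reached 15, and passed at a two-sided Benjamini-Hochberg adjusted p under 0.05 over all genes tested. The planned edgeR alternative was not run, and limma-voom on reads recovered from the values was added in its place after seeing the data. The script was tested on simulated data. The members and lists were chosen with earlier results of these data known. Named from the other lists were the 2 highest and 2 lowest changes that passed, and by likeness the 5 genes with the highest correlation. Other alternatives were median-of-ratios scaling, log2(CPM + 2), no filter, the replicate number as a block, and each library left out.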

Additional observations from a re-analysis of the deposited data

How the results depend on the processing

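Counts are subunits that passed, of 6, and the share of all genes called moved between settings as well. For mRNA in LPS, 9.03% were higher with all libraries, 1.98% with median-of-ratios scaling, 3.83% with limma-voom and 3.63% with the replicate block. For mRNA in LPS + DEX, 18.5% were higher, and 7.76% with median-of-ratios scaling. For TE in LPS, 13.6% were lower, 5.33% with median-of-ratios scaling and 7.05% with limma-voom. A fit with a library left out leaves 1 library in a group, so its counts are not compared. For mRNA, LPS against basal, 2 passed with all libraries, 0 with median-of-ratios scaling, limma-voom or the replicate block, and 0 to 3 with a library left out. For mRNA, LPS + DEX against basal, 5 passed, 2 with median-of-ratios scaling and 0 to 5 with a library left out. For footprints, LPS + DEX against LPS, 1 passed, 0 without a filter and 0 to 1 with a library left out. For TE changes 4 passed in each treatment against basal. For LPS this became 0 with median-of-ratios scaling, 2 with limma-voom and 1 to 4 with a library left out. For LPS + DEX it became 1 with median-of-ratios scaling and 1 to 4 with a library left out. TE levels gave 2 to 4 for LPS and 2 to 4 for LPS + DEX with a library left out. The highest over lowest ratio in basal cells was 2.23 to 2.77 with a library left out, 2.40 to 3.22 in LPS and 2.58 to 4.65 in LPS + DEX, and without Mcm4 it was 1.64 and 1.61 in basal and LPS cells. The cause was not tested, and a fit with a group of 1 library assumes that it varies like the others. The planned measures per kb, for want of lengths, and the edgeR alternative were not run.

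With median-of-ratios scaling the sign turned for Mcm7 mRNA in LPS (-0.041), for Mcm6 and Mcm7 footprints in LPS (0.015 and 0.041), for Mcm7 TE in LPS (0.053), for Mcm4 and Mcm7 TE in LPS + DEX against basal (0.13 and 0.026), for Mcm6 TE in LPS + DEX against LPS (0.012) and for the Mcm2 TE level in LPS + DEX (0.056). With a library left out, values that had not passed crossed 0. For footprints of LPS + DEX against basal the ranges were -0.080 to 0.25 (Mcm2) and -0.034 to 0.083 (Mcm3), and for LPS against basal -0.15 to 0.060 (Mcm6). For Mcm4 mRNA in LPS + DEX against LPS the range was -0.17 to 0.40, and for its TE against basal -0.49 to 0.080. For TE of LPS + DEX against LPS they were -0.24 to 0.13 (Mcm2), -0.014 to 0.55 (Mcm4), -0.27 to 0.18 (Mcm5), -0.13 to 0.079 (Mcm6) and -0.20 to 0.0705 (Mcm7). TE levels ranged from -0.14 to 0.24 (Mcm2, LPS), -0.15 to 0.14 (Mcm2, LPS + DEX) and -0.34 to 0.11 (Mcm5, LPS).

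Same-numbered replicates did not deviate together, with correlations of their deviations across genes of -0.161 to 0.097 between groups, so the numbers were not taken as pairs. With the replicate number as a block 0 of 6 passed for mRNA in LPS and 4 in LPS + DEX, against 3.63% and 15.4% of all genes called higher. With the culture number as a block 2 passed in each TE change against basal, against 10.6% (LPS) and 9.31% (LPS + DEX) called lower. RPF of LPS had the fewest reads, and the part of depth in the footprint comparisons was not tested.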
